A study of Mus musculus with 4 samples.

Results

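Mcu knockdown liver and control liver were compared 30 h after 70% partial hepatectomy, the operation that removes most of the liver and sends the quiescent hepatocytes of the remnant back into the cell cycle. The comparison is the deposited log2 value of the knockdown array minus that of the control array, for all 19505 genes with 1 gene symbol, and it uses 2 of the 4 arrays of the series. Where a gene had several probe sets, the probe set of highest average across arrays was taken. Each array held RNA of a pool of 4 animals, so each group had n = 1, no value carries an error, no test was possible and no difference has a replicate check.

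The groups used here were Mcu knockdown at 30 h, control at 30 h, Mcu knockdown at 0 h and control at 0 h. All mice were C57BL6J males with floxed Mcu alleles, and they received a tail vein injection at 10 to 12 weeks of age and surgery 5 weeks later. The knockdown mice received AAV8-TBG-Cre and the control littermates AAV8-TBG-Null, so virus and floxed alleles were common to all 4 groups. The control arrays carry the genotype label Wild type. TBG is a hepatocyte-directed promoter, so other cells of the liver should keep Mcu. Labels disagree in places: array descriptions mention ethanol feeding, found in no protocol or other field, and the description of the knockdown array at 30 h states 1 h, against 30 h in its title and time field. Groups here follow the titles. No operated group without removal of liver is part of the comparison.

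Mcu encodes the pore of the mitochondrial calcium uniporter, the channel through which calcium enters the mitochondrial matrix and reaches the dehydrogenases that it activates. In the regenerating mouse liver, hepatocytes pass through G1 into DNA synthesis and then mitosis. E2F factors drive the replication genes at the entry into S phase, and the DREAM and Myb-MuvB complexes act on the mitotic genes through a cell cycle homology element (CHR) near their start. A cyclin wave, histone supply, the acute phase response and a partial loss of mature metabolic functions accompany this program.

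Mcu itself read 2.63 in knockdown and 4.30 in control liver at 30 h, and 2.83 in knockdown and 4.77 in control liver at 0 h. It was 3.18-fold lower at 30 h, a log2 difference of -1.67. Both knockdown arrays lay below both control arrays, as the labels state. Hepatocyte genes marked the tissue as labelled: the median level of 7 markers, among them Alb and Ttr, was 11.5 in knockdown and 11.4 in control liver at 30 h, and 11.8 in knockdown and 11.7 in control liver at 0 h. Pairs of arrays correlated over 22206 probe sets with r between 0.953 and 0.974, and the array medians lay between 3.75 and 3.84. In bulk RNA, fewer cells of a type and less RNA per cell cannot be told apart.

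Across the genes with a symbol the 2 arrays at 30 h differed in 2 directions that depended on expression level. Genes whose mean over the 4 arrays reached 3.83, the median of all gene means, are called bright here, and 9759 genes met this. In knockdown liver 111 of them (1.14%) were higher by 2-fold or more and 211 (2.16%) lower by 2-fold or more, so 34.5% of the genes past 2-fold were higher. Over all 19505 genes, 403 (2.07%) were higher and 363 (1.86%) lower by that size. Differences below 0 were found in 49.8% of all genes and in 61.2% of the bright ones. The median difference was -0.11 over bright genes and 0.11 over dim ones, and by deciles of mean expression it ran between 0.14 and -0.21. After the median of its own decile was taken from each gene, the counts were 153 higher and 160 lower, a share of 48.9% higher. After each array was centred on its median over bright genes the counts were 206 higher and 119 lower, a share of 63.4%. Median differences of gene lists are therefore given below with their value after subtraction of the decile median, called the level-matched median.

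**Figure D1:**
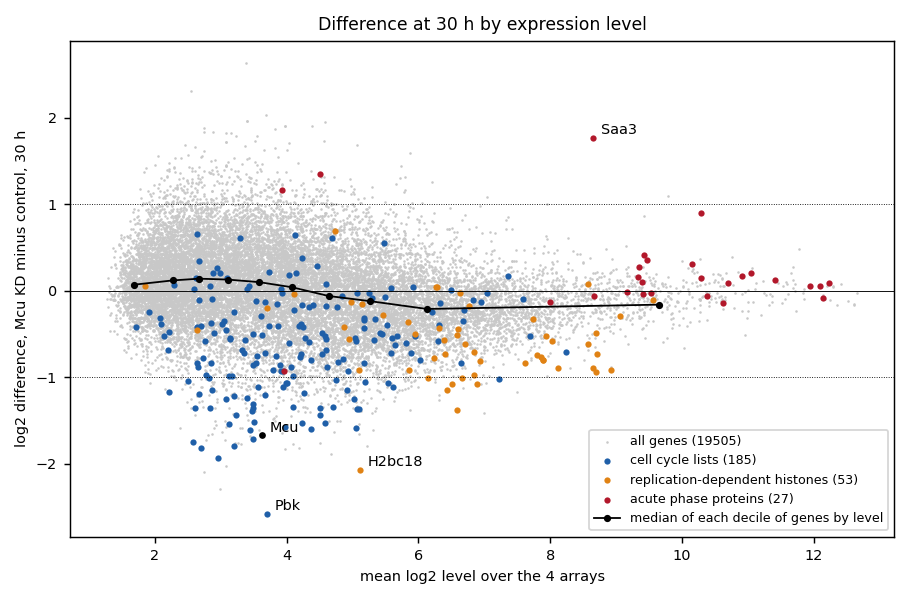
Log2 difference at 30 h, Mcu knockdown minus control, of 19505 genes (grey) against their mean log2 level over the 4 arrays; coloured points are members of the cell cycle lists, histone genes and acute phase genes, the black point named Mcu is the targeted gene, the black line joins the medians of deciles of genes by level, and dotted lines mark 2-fold. Cell cycle and histone genes lie mostly below the line and acute phase genes mostly above it.

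Genes of DNA replication, chromosome segregation and histones were lower in knockdown liver at 30 h. Over 7 lists of the cell cycle, 158 of 185 measured genes were lower in knockdown liver, 47 of them by 2-fold or more, and 0 were higher by 2-fold or more. The median difference of the 185 genes was -0.56 (1.47-fold lower), with a level-matched median of -0.58. Among bright genes, 22 of 105 cell cycle genes were at least 2-fold lower, against 2.16% of all bright genes. The same lists had a median difference of 0.02 at 0 h. Cell cycle genes were 10.4% of the 211 bright genes at least 2-fold lower, and 167 of the 211 belonged to none of the lists described here.

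Cell cycle genes were higher at 30 h than at 0 h in both genotypes. Their median difference between the times was 0.51 in knockdown and 1.04 in control liver. These values share arrays with the difference at 30 h and are given as levels, not as separate evidence.

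Genes of the G1 to S transition were lower in 19 of 21 cases, with 7 at least 2-fold lower, a median of -0.39 and a level-matched median of -0.31. Ccne2, cyclin E2, which activates the kinase Cdk2 for S phase entry, read 4.94 in knockdown and 6.51 in control liver at 30 h, and 2.45 in knockdown and 2.01 in control liver at 0 h (-1.57 at 30 h). Cdk2 itself read 4.76 in knockdown and 6.10 in control liver at 30 h, and 4.22 in knockdown and 3.73 in control liver at 0 h (-1.34 at 30 h). For both genes the knockdown array was the lower one at 30 h and the higher one at 0 h.

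The E2F family was not uniform. E2f1, an activator of S phase genes, read 4.28 in knockdown and 5.46 in control liver at 30 h, and 3.67 in knockdown and 3.65 in control liver at 0 h (-1.18 at 30 h). E2f8, an atypical repressor linked to hepatocyte polyploidy, read 4.56 in knockdown and 6.09 in control liver at 30 h (-1.53). Its relative E2f7 was higher instead, at 5.02 in knockdown and 4.41 in control liver (0.61). Other genes of this list past 2-fold were the pocket protein Rbl1 (-1.54), which represses E2F targets, the phosphatase Cdc25a (-1.25), which activates Cdk2, and the E2F partner Tfdp1 (-1.02). E2f2 differed by -0.98 and the S and G2 cyclin Ccna2 by -0.68, both short of 2-fold.

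Origin licensing, the loading of the Mcm helicase on DNA, had a median difference of -0.76 and a level-matched median of -0.68. Of its 24 genes, 20 were lower and 8 at least 2-fold lower. All 5 measured subunits of the Mcm2 to Mcm7 helicase were lower, 4 of them at least 2-fold, with a median of -1.37. Mcm4 read 5.25 in knockdown and 6.85 in control liver at 30 h, and 2.88 in knockdown and 2.51 in control liver at 0 h (-1.60 at 30 h). Mcm6 read 6.23 in knockdown and 7.60 in control liver at 30 h, and 3.88 in knockdown and 2.67 in control liver at 0 h (-1.37 at 30 h and 1.21 at 0 h). Mcm3 read 3.86 in knockdown and 5.38 in control liver at 30 h, and 2.43 in knockdown and 2.36 in control liver at 0 h (-1.52 at 30 h). At 30 h all 3 stood above their own level at 0 h on both genotypes' arrays, and the knockdown array was the lower one. Mcm2 differed by -1.03 and Mcm5 by -0.88.

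The GINS complex, which joins Mcm and Cdc45 in the active helicase, was lower in all 4 subunits, by 1.79 at the most for Gins1 and with a median of -0.83. Cdc6, which loads Mcm onto the origin, read 3.74 in knockdown and 5.05 in control liver at 30 h (-1.31), and Dbf4, the activator of the kinase that fires origins, read 2.60 in knockdown and 3.82 in control liver (-1.22). The origin recognition complex split, with 3 of 5 measured subunits lower: Orc6 differed by -1.36 and Orc3 by -0.58, and the highest difference of a subunit was 0.21.

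Replication fork genes were lower in 28 of 30 cases, with a median of -0.74 and a level-matched median of -0.72. Only 4 of them passed 2-fold, so the differences were moderate and shared by most members. Chaf1b, a subunit of the histone chaperone that assembles new chromatin, read 3.86 in knockdown and 5.21 in control liver at 30 h, and 2.11 in knockdown and 2.76 in control liver at 0 h (-1.35 at 30 h). Fen1, the flap endonuclease of Okazaki fragments, read 4.32 in knockdown and 5.43 in control liver at 30 h, and 2.95 in knockdown and 3.05 in control liver at 0 h (-1.11 at 30 h). Both stood above their 0 h level in each genotype. The single-strand binding subunit Rpa2 (-1.11) and the histone chaperone Asf1b (-1.05) also passed 2-fold. Pcna, the sliding clamp, read 9.13 in knockdown and 9.84 in control liver at 30 h, and 7.13 in knockdown and 6.83 in control liver at 0 h (-0.71 at 30 h).

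The clamp loader and the primase showed the narrowest ranges. All 5 replication factor C subunits were lower, with differences between -0.92 and -0.50, and the 4 genes of polymerase alpha and primase lay between -0.83 and -0.75. Polymerases delta and epsilon had a median of -0.09 over 5 genes and ran between -0.83 and 0.29, and their level-matched median was 0.07.

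Deoxynucleotide supply had a median of -0.41 over 19 genes, 16 of them lower, and 2 genes past 2-fold. Both were subunits of ribonucleotide reductase, which makes deoxynucleotides. Rrm2 read 5.50 in knockdown and 7.09 in control liver at 30 h, and 4.20 in knockdown and 3.40 in control liver at 0 h (-1.59 at 30 h). Rrm1 read 6.44 in knockdown and 7.51 in control liver at 30 h, and 3.72 in knockdown and 4.49 in control liver at 0 h (-1.07 at 30 h). Tyms, thymidylate synthase, differed by -0.72 and Shmt2, the mitochondrial serine hydroxymethyltransferase of the folate cycle, by -0.83. Genes of homologous recombination and Fanconi repair were mixed: 11 of 18 were lower, and their median of -0.10 turned to 0.02 after median centring. In that list the mismatch repair gene Msh6 differed by -1.24, while Palb2, which links Brca1 and Brca2, was higher by 0.66.

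Mitotic entry and exit genes were lower in 19 of 22 cases, 7 of them at least 2-fold, with a median of -0.65 and a level-matched median of -0.64. Pbk, a mitotic kinase, read 3.72 in knockdown and 6.30 in control liver at 30 h, and 2.19 in knockdown and 2.62 in control liver at 0 h. Its difference of -2.58 (5.98-fold lower) was the largest negative one within the cell cycle lists. Cdk1, the kinase that starts mitosis, read 3.78 in knockdown and 5.49 in control liver at 30 h, and 1.94 in knockdown and 2.75 in control liver at 0 h (-1.71 at 30 h). Both genes have mean levels below the bright threshold. Ccnb2, a cyclin B partner of Cdk1, read 4.77 in knockdown and 6.14 in control liver at 30 h, and 4.55 in knockdown and 4.82 in control liver at 0 h (-1.37 at 30 h). The ubiquitin-conjugating enzyme of the anaphase-promoting complex, Ube2c, differed by -1.25 and its activator Cdc20 by -1.35. The polo kinase Plk1 (-0.93) and the aurora kinases Aurka and Aurkb (-0.73 each) did not pass 2-fold. Already at 0 h its median was -0.28 and 15 of 22 genes were lower in knockdown liver.

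Kinetochore, spindle and cytokinesis genes were lower in 45 of 51 cases, 17 of them at least 2-fold. This is the largest count past 2-fold of these lists, but the same share as 8 of 24 licensing genes and 7 of 21 G1 to S genes. The median was -0.63 and the level-matched median -0.72, and 18 of the 51 genes were bright. Ncapg, a condensin subunit that compacts mitotic chromosomes, read 2.76 in knockdown and 4.69 in control liver at 30 h, and 1.88 in knockdown and 2.52 in control liver at 0 h (-1.93 at 30 h). Bub1, a spindle checkpoint kinase, read 2.13 in knockdown and 3.95 in control liver at 30 h, and 2.46 in knockdown and 2.26 in control liver at 0 h (-1.82 at 30 h). Both genes have mean levels below the bright threshold. In knockdown liver Bub1 lay at percentile 11.4 of its array at 30 h and 21.2 at 0 h. Whether it rose cannot be read from values this low. Mki67, which coats mitotic chromosomes and marks dividing cells, read 4.75 in knockdown and 6.18 in control liver at 30 h, and 3.20 in knockdown and 3.91 in control liver at 0 h (-1.43 at 30 h).

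By complex, condensin was at least 2-fold lower in 4 of 6 subunits, with a median of -1.11, and the spindle checkpoint was lower in 5 of 5 genes with a median of -0.98. Ndc80 complex genes, which hold microtubules at the kinetochore, were lower in 4 of 4 cases (median -0.62). Of 12 kinesins, the motors of the spindle, 10 were lower, with Kif20b at -1.53. The kinesins also had a median of -0.52 at 0 h, with 10 of 12 lower in knockdown liver, so for this family the knockdown array was the lower one at both times. The chromosomal passenger complex showed the smallest shift among these complexes, with a median of -0.39.

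**Figure D2:**
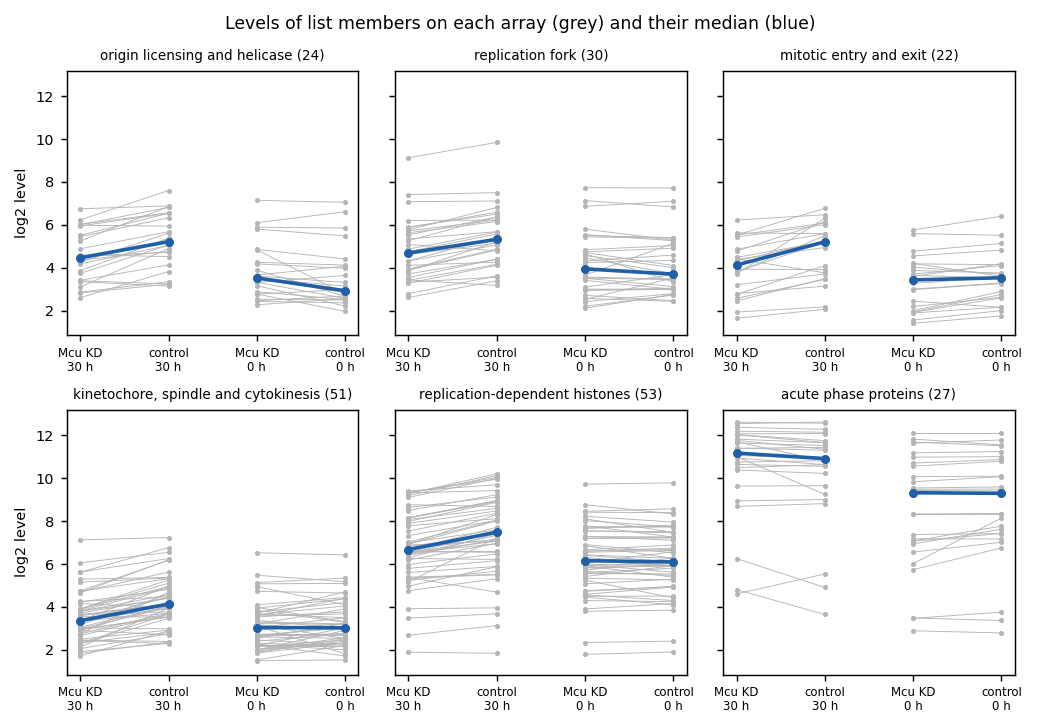
Log2 levels on the 4 arrays of the members of 6 gene lists (grey, 1 line per gene and time) and their median (blue), with the Mcu knockdown array left of the control array at each time. The medians of the 5 cell cycle and histone lists are lower in knockdown than in control liver at 30 h, and the medians of the 2 genotypes lie closer together at 0 h.

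Histone genes of S phase were lower as well. The list of replication-dependent histones was added after values were seen. Of its 53 genes, 48 were lower in knockdown liver, 7 at least 2-fold, with a median of -0.58, a level-matched median of -0.45 and a median of -0.01 at 0 h. Among its bright genes 14% were at least 2-fold lower, against 2.16% of all bright genes. H2bc18, an H2B gene, read 5.16 in knockdown and 7.23 in control liver at 30 h, and 3.91 in knockdown and 4.16 in control liver at 0 h. Its difference of -2.07 (4.20-fold lower) was the largest negative one among named bright genes. H2ac15 read 6.93 in knockdown and 8.31 in control liver at 30 h, and 5.56 in knockdown and 5.54 in control liver at 0 h (-1.38 at 30 h). By class the medians were -0.73 for 13 H2A genes, -0.73 for 15 H2B genes, -0.66 for 10 H3 genes, -0.44 for 11 H4 genes and -0.46 for 4 H1 genes. Histone copies are nearly identical in sequence and probes may read several of them, so single histone genes are uncertain. The counts and medians of these genes may likewise hold the same signal more than once.

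Promoter windows of the cell cycle genes are shown because the motifs of the cell cycle factors named above lie there. Windows of 300 bases, 250 before to 50 after the annotated start, were taken from RefSeq on build GRCm38.p6. The search covered both strands for E2F motifs (TTTCCCGC, TTTGGCGC, TTTGCCGC or TTTCGCGC), the CHR motif (TTTGAA) and the NF-Y box (CCAAT). A match is a description of letters and not a bound site. The 5 windows below, selected after the matches were seen, hold several matches each and are written 5′ to 3′ in the direction of the gene, with all matches in capitals. Neighbouring matches can overlap, as 2 E2F matches do in the Mcm6 window. The Mcm6 window is chr1:128359656-128359955 on the minus strand and holds 3 E2F matches and 2 NF-Y boxes. That of Mcm3 is chr1:20820263-20820562 on the minus strand, with 2 E2F matches and 3 NF-Y boxes. The Cdk1 window, chr10:69352863-69353162 on the minus strand, holds 1 E2F match, 2 CHR matches and 3 NF-Y boxes. The Ccnb2 window, chr9:70421505-70421804 on the minus strand, holds 2 CHR matches and 3 NF-Y boxes, and that of Ncapg, chr5:45669675-45669974 on the plus strand, holds 1 of each motif.
Mcm6: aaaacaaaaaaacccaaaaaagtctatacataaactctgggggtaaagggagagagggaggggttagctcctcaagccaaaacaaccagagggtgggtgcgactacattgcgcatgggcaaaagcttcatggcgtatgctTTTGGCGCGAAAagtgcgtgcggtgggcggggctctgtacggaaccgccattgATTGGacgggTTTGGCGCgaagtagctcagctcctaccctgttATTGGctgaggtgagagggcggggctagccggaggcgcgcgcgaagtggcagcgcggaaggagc
Mcm3: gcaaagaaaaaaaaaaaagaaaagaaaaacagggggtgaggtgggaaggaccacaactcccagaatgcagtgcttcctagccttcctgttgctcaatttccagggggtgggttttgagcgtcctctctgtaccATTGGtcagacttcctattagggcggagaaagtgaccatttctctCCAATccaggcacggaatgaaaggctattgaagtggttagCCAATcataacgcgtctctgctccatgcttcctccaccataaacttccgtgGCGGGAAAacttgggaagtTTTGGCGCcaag
Cdk1: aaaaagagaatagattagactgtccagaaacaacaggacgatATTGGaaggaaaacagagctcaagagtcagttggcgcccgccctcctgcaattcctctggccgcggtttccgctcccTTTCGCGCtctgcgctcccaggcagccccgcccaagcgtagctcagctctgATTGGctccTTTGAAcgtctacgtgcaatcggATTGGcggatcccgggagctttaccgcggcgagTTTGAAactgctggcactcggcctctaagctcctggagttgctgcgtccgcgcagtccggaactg
Ccnb2: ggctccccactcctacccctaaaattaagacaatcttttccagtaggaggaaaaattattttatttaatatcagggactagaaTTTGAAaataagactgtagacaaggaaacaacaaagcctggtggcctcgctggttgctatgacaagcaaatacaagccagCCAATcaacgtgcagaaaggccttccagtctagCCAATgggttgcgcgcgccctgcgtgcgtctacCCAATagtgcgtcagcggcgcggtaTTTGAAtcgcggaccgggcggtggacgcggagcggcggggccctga
Ncapg: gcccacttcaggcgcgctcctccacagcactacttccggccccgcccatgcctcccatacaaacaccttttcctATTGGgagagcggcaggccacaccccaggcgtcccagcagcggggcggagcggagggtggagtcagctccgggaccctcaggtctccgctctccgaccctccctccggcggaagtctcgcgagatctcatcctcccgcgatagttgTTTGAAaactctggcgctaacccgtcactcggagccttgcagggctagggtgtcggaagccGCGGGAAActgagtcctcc

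E2F matches lay in the windows of 10 of 19 licensing genes with a window (52.6%) and 9 of 26 fork genes (34.6%), against 3.38% of 15691 measured genes and 2.61% of all 27025 genes with a RefSeq window. CHR matches lay in 32 of 45 kinetochore, spindle and cytokinesis genes (71.1%) and 8 of 17 mitotic entry and exit genes (47.1%), against 17.8% of measured genes. Within 50 bases of the start, CHR matches were found in 27 of the 45 genes, against 4.79% of measured genes. Replication-dependent histones held an NF-Y box in 85.4% of 48 windows, against 42.2% of measured genes. None of the 19 deoxynucleotide and folate genes held an E2F match, although Rrm1 and Rrm2 were more than 2-fold lower. These shares follow from the genes chosen for the lists and use no array value. Of the cell cycle genes at least 2-fold lower, 41 had a window. In these, E2F matches lay in 26.8%, CHR matches in 48.8% and NF-Y boxes in 70.7%. Over all 158 cell cycle genes with a window the shares were 22.2%, 37.3% and 63.3%.

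Read from the other side, bright genes with a match were set against those without. Of 339 bright genes with an E2F match, 3.24% were at least 2-fold lower, against 2.23% of 7595 bright genes without one. For CHR the shares were 3.96% with a match and 1.98% without, and for the NF-Y box 2.59% with and 2.03% without. The median differences lay closer together. They were -0.19 with and -0.11 without an E2F match, -0.11 and -0.12 for CHR, and -0.13 and -0.11 for the NF-Y box. Cell cycle genes were not taken out of these groups. Among the 180 bright genes at least 2-fold lower that had a window, 6.11% held an E2F match, 25.6% a CHR match and 48.9% an NF-Y box. The shares were 3.33%, 13.3% and 46.7% of the 90 at least 2-fold higher with a window, and 4.27%, 14.6% and 42.9% of all 7934 bright genes with one.

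**Figure D3:**
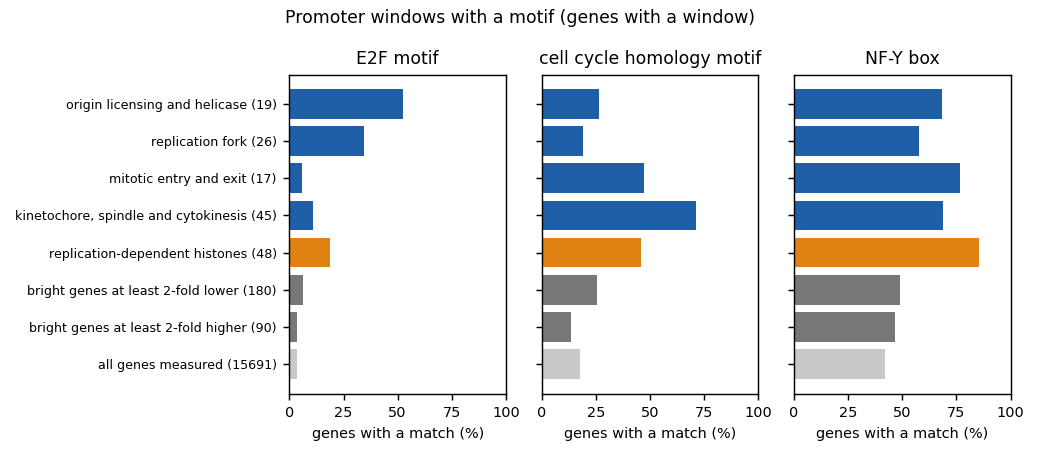
Share of genes (%) whose 300-base promoter window holds an E2F motif, a cell cycle homology (CHR) motif or an NF-Y box, for 5 cell cycle and histone lists, the bright genes at least 2-fold lower or higher in Mcu knockdown at 30 h, and all measured genes; the number of genes with a window is in parentheses. Licensing genes have the longest E2F bar (52.6%) and kinetochore, spindle and cytokinesis genes the longest CHR bar (71.1%).

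Outside the cell cycle lists, the largest negative differences among bright genes fell on genes of varied function. Ptcd3, a protein of the small mitochondrial ribosomal subunit, read 3.49 in knockdown and 5.38 in control liver at 30 h, and 4.94 in knockdown and 4.90 in control liver at 0 h (-1.89 at 30 h). Slc51b, the beta subunit of the bile acid exporter OST, read 4.00 in knockdown and 5.82 in control liver at 30 h, and 2.74 in knockdown and 4.21 in control liver at 0 h (-1.82 at 30 h and -1.47 at 0 h). Of these genes Slc51b was at least 2-fold lower in knockdown liver at both times, while Ptcd3 was level at 0 h. The microtubule-end protein Clasp1 (-1.83), the recycling endosome GTPase Rab11a (-1.79), the SMN complex protein Gemin6 (-1.77), the splicing kinase Clk4 (-1.76), histamine N-methyltransferase Hnmt (-1.65) and the stress kinase Map3k5 (-1.63) followed. Cited2, a transcriptional co-regulator that binds CBP and p300, read 3.55 in knockdown and 5.16 in control liver at 30 h, and 6.45 in knockdown and 6.09 in control liver at 0 h (-1.61 at 30 h). Mybl1, the A-Myb factor, differed by -1.64 and the tubulin-binding protein Stmn1 by -1.61, and both were higher at 30 h than at 0 h in each genotype.

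The largest differences in both directions were mostly in genes of low level. Of the 14 largest positive ones 12 had a mean level under 5, as did 9 of the 14 largest negative ones. At 0 h the 14 positive ones differed by between -0.11 and 1.08, the highest being Pheta2. The positive ones included the keratin-associated Krtap9-1 (1.91) and Krtap5-4 (1.63), Smim22 (1.73), Pheta2 (1.71), the homeobox gene Lmx1a (1.55), the integrin subunit Itgb3 (1.38), Cypt1 (1.37), the imprinted transcript Ipw (1.32), Scrt2 (1.32) and the ciliary gene Ahi1 (1.31). Saa3, a serum amyloid gene of the acute phase, stood apart from these with 11.02 in knockdown and 9.25 in control liver at 30 h, and 7.18 in knockdown and 7.17 in control liver at 0 h (1.77 at 30 h, 3.41-fold higher). Saa3 is one of several serum amyloid genes of similar sequence.

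**Figure D4:**
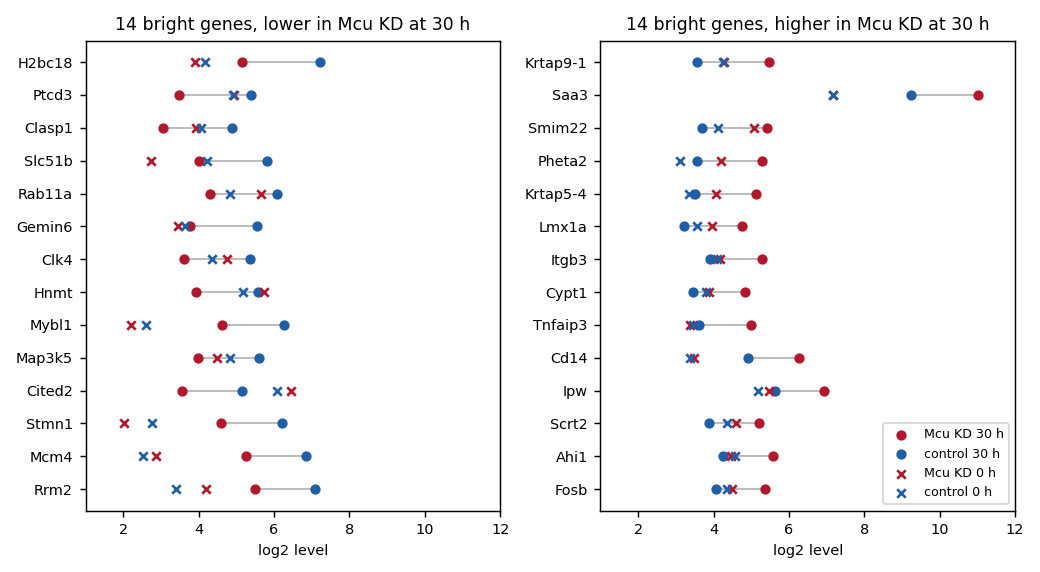
Log2 levels on each of the 4 arrays of the 14 bright genes with the largest negative (left) and the 14 with the largest positive (right) difference at 30 h; circles are 30 h and crosses 0 h, red is Mcu knockdown and blue control, and grey lines join the 30 h arrays. Saa3 reaches 11.02 in knockdown liver at 30 h, while the highest value of the other genes shown is 7.23.

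Acute phase genes were higher in knockdown liver relative to the medians of their deciles. Of 27 genes, 18 were higher and 3 at least 2-fold higher, the median was 0.10 and the level-matched median 0.26, and 1 gene lay below the median of its decile. Cd14, the lipopolysaccharide co-receptor, read 6.26 in knockdown and 4.91 in control liver at 30 h, and 3.49 in knockdown and 3.37 in control liver at 0 h (1.35 at 30 h). Serpina3n, a protease inhibitor of the acute phase, read 11.71 in knockdown and 10.81 in control liver at 30 h, and 9.33 in knockdown and 9.30 in control liver at 0 h (0.90 at 30 h). A2m, alpha-2-macroglobulin, differed by 1.16. Hpx, hemopexin, differed by -0.08 and Orm3, an orosomucoid, by -0.93. Most members differed little from control in absolute terms and lay above the median of their decile. The list had a median of -0.04 at 0 h. The highest decile is wide, from 6.65 to 12.7, and the list had median levels of 11.2 in knockdown and 10.9 in control liver at 30 h. Plasma proteins of hepatocytes, at 10.6 in both, had a median of -0.04 and a level-matched median of 0.12, with 7 of 34 genes below the median of their decile.

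Chemokine and NF-kappaB genes had a median of 0.25 and a level-matched median of 0.22, with 23 of 34 higher and 1 past 2-fold. That gene was Tnfaip3, the A20 ubiquitin editor that restrains NF-kappaB, at 4.99 in knockdown and 3.62 in control liver at 30 h, and 3.37 in knockdown and 3.45 in control liver at 0 h (1.37 at 30 h). The list did not move as one, since Ccl5 differed by 0.98 while Cxcl1 differed by -0.42 and Ccl2 by -0.32. Immediate early genes had a median of 0.10, with Fosb (1.31) past 2-fold, Myc at 0.98 and Fos at -0.51. Myc, a driver of growth and ribosome production, read 5.54 in knockdown and 4.56 in control liver at 30 h, and 3.88 in knockdown and 4.43 in control liver at 0 h. Of the IL-6 and STAT3 axis, which primes hepatocytes after resection, Stat3 differed by -0.75 and the receptor gene Il6ra by -0.64, while the oncostatin M receptor Osmr differed by 0.48, the transcription factor Cebpd by 0.42 and the feedback inhibitor Cish by 0.38. The list median was 0.04, with 11 of 21 genes higher.

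Growth factors and their receptors had a median of 0.08 over 31 genes and 0 past 2-fold. Hgf, the hepatocyte mitogen made by stellate and endothelial cells, read 6.17 in knockdown and 6.87 in control liver at 30 h, and 5.81 in knockdown and 6.05 in control liver at 0 h (-0.70 at 30 h). Its receptor Met read 5.50 in knockdown and 6.30 in control liver at 30 h, and 6.27 in knockdown and 6.09 in control liver at 0 h (-0.80 at 30 h). Ligand and receptor were thus both the lower one on the knockdown array at 30 h. The epidermal growth factor ligand Ereg differed by 0.80 at 30 h and by 0.78 at 0 h. In the TGF-beta and activin list, several of whose members restrain hepatocyte growth, Bmp2 (-1.20), Inhbc (-1.02) and Bmp4 (-1.02) were at least 2-fold lower and the median was -0.05, turning to 0.08 after median centring. For p53 targets and inhibitors of cyclin-dependent kinases the median was 0.02, 13 of 25 were higher, with Plk2 at -1.61 and the inhibitors Cdkn2b at 0.70 and Cdkn2c at -0.57.

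The medians of the mitochondrial lists were shifted little once level was matched. Respiratory chain and ATP synthase genes had 0 of 63 past 2-fold in either direction, with a median of -0.12 that became 0.04 after level matching and 0.01 after median centring. For the mitochondrial ribosome the median was -0.13 and the level-matched median 0.04. Past 2-fold were 4 of 64 genes, all lower: Mrpl22 (-1.29), Mrps18a (-1.13), Mrps16 (-1.05) and Mrpl11 (-1.03). Of all bright genes 2.16% were lower by that size. Calcium transport genes of mitochondria had a median of -0.33 (level-matched -0.14). Besides Mcu, the calcium-regulated ATP-magnesium carrier Slc25a24 read 3.81 in knockdown and 4.64 in control liver at 30 h, and 4.29 in knockdown and 3.97 in control liver at 0 h (-0.83 at 30 h). Smdt1, which encodes the uniporter subunit EMRE, differed by 0.04.

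Among the calcium-sensitive dehydrogenases and the phosphatases and kinases that regulate them, 16 of 18 were lower and the median was -0.24 (level-matched -0.15). Below the median of their decile lay 14 of the 18. Dlat, the acetyltransferase of pyruvate dehydrogenase, read 5.70 in knockdown and 6.42 in control liver at 30 h, and 6.47 in knockdown and 6.27 in control liver at 0 h (-0.72 at 30 h). Idh3a, the catalytic subunit of the calcium-sensitive isocitrate dehydrogenase, differed by -0.58 and the glycerol-3-phosphate dehydrogenase Gpd2 by -0.64. Pdp1, the calcium-activated phosphatase of pyruvate dehydrogenase, ran the other way at 3.97 in knockdown and 2.74 in control liver at 30 h, and 3.44 in knockdown and 2.18 in control liver at 0 h (1.23 at 30 h). It is a dim gene, and it was higher on the knockdown array at both times. The phosphatase genes Pdp2 (-0.01) and Pdpr (-0.09) differed little. The 4 pyruvate dehydrogenase kinases, which are among the 18 genes, were all lower, between -0.50 and -0.08.

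Cholesterol synthesis was the metabolic list with the highest median, 0.18 and 0.34 after level matching, with 15 of 24 genes higher. Hmgcs1, which makes HMG-CoA, read 10.14 in knockdown and 9.05 in control liver at 30 h, and 10.13 in knockdown and 9.82 in control liver at 0 h (1.09 at 30 h). Sqle, squalene epoxidase, read 7.12 in knockdown and 6.16 in control liver at 30 h, and 6.47 in knockdown and 6.17 in control liver at 0 h (0.96 at 30 h). For both genes the 2 genotypes were further apart at 30 h than at 0 h. Mvd differed by 0.78 (0.96 at 0 h) and Cyp51 by 0.63 (0.05 at 0 h), while the sterol exporter Abcg8 differed by -0.75. At 0 h the median of the list was 0.20. In lipid synthesis, Thrsp, a lipogenic nuclear protein, differed by 1.00, Scd1, the stearoyl-CoA desaturase, by 0.86 and Fasn, fatty acid synthase, by 0.57. Most of that list, 16 of 24 genes, was lower, among them the lipogenic transcription factor Mlxipl (-0.77), the desaturase Fads1 (-0.43) and the triglyceride-forming enzyme Dgat1 (-0.41). Its median of -0.06 became 0.08 after median centring.

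Urea cycle and amino acid breakdown genes were lower in 36 of 38 cases, none of them 2-fold, with a median of -0.33 and a level-matched median of -0.14. Hal, histidine ammonia-lyase, read 7.87 in knockdown and 8.56 in control liver at 30 h, and 8.96 in knockdown and 8.91 in control liver at 0 h (-0.69 at 30 h). Fewer of them, 27 of 38, lay below the median of their decile. The tryptophan dioxygenase Ido2 differed by -0.83, Amdhd1 of histidine breakdown by -0.82 and Aldh4a1 of proline breakdown by -0.69. Tat, tyrosine aminotransferase, differed by -0.01. Gluconeogenesis and glycogen genes had a median of -0.25 (level-matched -0.09), with Foxo1, the fasting transcription factor, at -1.07. Fatty acid oxidation genes had a median of -0.22 (level-matched -0.08) and 0 of 30 past 2-fold. Glycolysis genes had a median of 0.06, and the neuronal enolase Eno2 (1.43) and lactate exporter Slc16a3 (1.06), both dim, were past 2-fold. At 0 h Eno2 differed by 1.28 and Slc16a3 by -1.70. Of 59 cytochrome P450 and phase II genes 0 passed 2-fold, and the level-matched median was 0.00.

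Antioxidant genes were lower in 22 of 26 cases, with a median of -0.25 and a level-matched median of -0.10. Below the median of their decile lay 17 of the 26. Gsta2, a glutathione transferase of the Nrf2 response, read 4.92 in knockdown and 6.15 in control liver at 30 h, and 5.85 in knockdown and 5.68 in control liver at 0 h (-1.23 at 30 h). Nqo1, a quinone reductase of the same response, read 3.77 in knockdown and 4.87 in control liver at 30 h, and 4.23 in knockdown and 4.06 in control liver at 0 h (-1.10 at 30 h). On both, the knockdown array was the lower one at 30 h and close to control at 0 h. Gstm2 (-0.98), Gstm3 (-0.88) and Gstm4 (-0.80) were lower as well, and these transferases are similar in sequence, so their probes may share signal. The integrated stress response had a median of -0.01, with Chac1, a glutathione-degrading enzyme, at 1.30.

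Circadian clock genes had a median of -0.28 and a level-matched median of -0.24, with 3 of 20 at least 2-fold lower. Clock, the transcription factor, read 6.24 in knockdown and 7.32 in control liver at 30 h, and 7.31 in knockdown and 6.95 in control liver at 0 h (-1.08 at 30 h). Bhlhe41 (-1.03) and Ciart (-1.01), 2 repressors of the clock, were lower too, while Cry2 was higher by 0.66. The hour of the day at sampling is not given in the sources used here, and its part in these values was not tested.

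**Figure D5:**
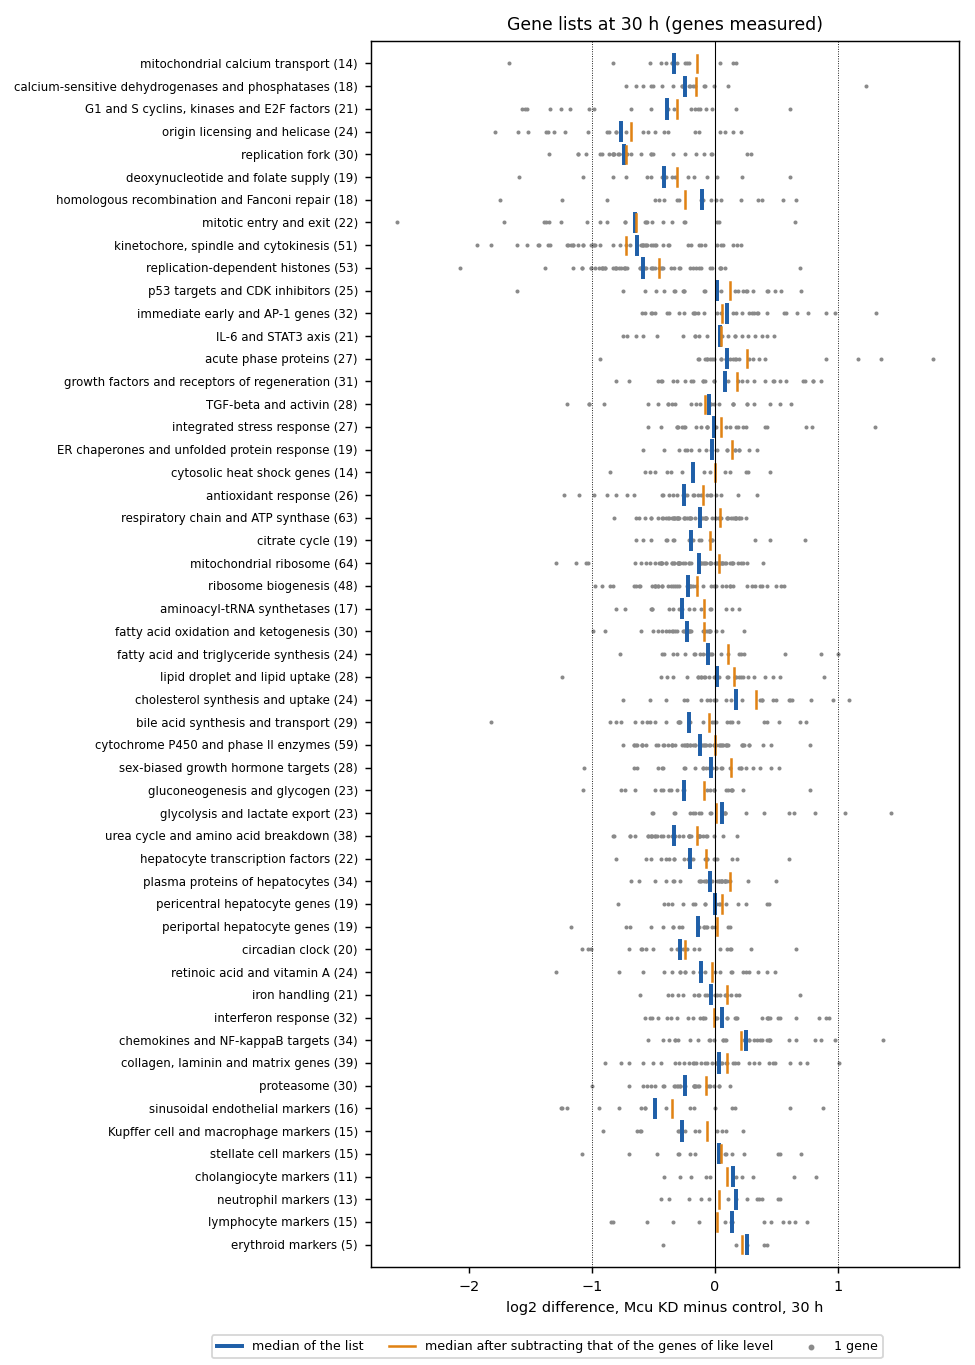
Log2 difference at 30 h, Mcu knockdown minus control, of each member (grey points) of 53 gene lists with the number of measured genes in parentheses; blue bars are list medians, orange bars level-matched medians and dotted lines 2-fold. The cell cycle and histone lists have most of the genes past 2-fold on the left, and the respiratory chain list has none past 2-fold on either side.

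Of 7 lists of markers of other cells, 5 had a level-matched median of 0.15 or less in size. The exceptions were the sinusoidal endothelial list and the 5 erythroid markers (0.22). Sinusoidal endothelial markers had a median of -0.48 at 30 h (level-matched -0.35), with 11 of 16 lower and 3 at least 2-fold lower, and a median of 0.22 at 0 h. Stab2, a scavenger receptor of these cells, read 3.34 in knockdown and 4.59 in control liver at 30 h, and 4.26 in knockdown and 4.66 in control liver at 0 h (-1.25 at 30 h). Lyve1 went against this, at 5.07 in knockdown and 4.19 in control liver at 30 h (0.88). Their summed level was 8.78 in knockdown and 9.10 in control liver at 30 h, and 9.39 in knockdown and 9.19 in control liver at 0 h, on the log2 scale. The other two past 2-fold were the fatty acid transporter Cd36 (-1.24) and Bmp2 (-1.20), which other cells express too. Kupffer cell and macrophage markers had a summed level of 9.70 in knockdown and 9.97 in control liver at 30 h, and 9.89 in knockdown and 9.48 in control liver at 0 h, with 11 of 15 lower at 30 h and a level-matched median of -0.06. Stellate cell markers had a median of 0.03. Cycling endothelial, Kupffer and stellate cells express the cell cycle lists too, and the part of these cells in the cell cycle differences was not tested.

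The differences at 30 h were largely not those at 0 h. In knockdown liver at 0 h, 122 bright genes (1.25%) were higher and 62 (0.635%) lower by 2-fold or more. Of the 211 genes at least 2-fold lower at 30 h, 118 were higher and 91 lower at 0 h, with a median of 0.06. By 2-fold or more, 2 of them were lower and 6 higher at 0 h. Of the 111 at least 2-fold higher at 30 h, 57 were higher and 52 lower at 0 h, with 3 at least 2-fold higher. Over the 9759 bright genes the differences at the 2 times, which use different arrays, correlated across genes with r = -0.018, a description over genes that are not replicates. With 1 array per group, the part of array noise in these values was not tested.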

How the data were processed

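Liver RNA of 4 groups was measured on 4 Affymetrix whole-transcript arrays, 1 pool of 4 animals each. Per the submitters' processing notes, the authors used RMA and Affymetrix Expression Console, and the deposited log2 values give 1 number per probe set and array. Versions and settings are not given in the sources. RMA as a rule equalises array distributions, which hides a shift common to all genes, and dim values understate folds. The deposited values were not equal in spread, with standard deviations between 1.83 (control at 0 h) and 1.96 (control at 30 h). The number of arrays limits the precision, and no depth applies.

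Of 22206 probe sets, 19572 carried 1 symbol of the platform annotation, all matched to GRCm38.p6 by Entrez ID, none carried several, and 2634 had none. Differences were taken in Python 3.11.15, with pandas 2.3.3 and numpy 2.4.6, and cyclic loess in limma 3.58.1 (R 4.3.3). With 1 array per group no test was run and genes were counted at 2-fold. The counting code was run on simulated data with planted shifts and a preset noise. That run does not tell how many genes pass 2-fold by array noise. Named genes were the 14 bright genes with the largest difference each way (without predicted genes, RIKEN clones and other unnamed loci, structural RNAs, receptor families of smell and taste, and antigen receptor genes), up to 4 members of each list in the direction of its median, up to 2 past 2-fold the other way, mitochondrial calcium genes and bright genes 2-fold apart in opposite directions at the 2 times; other list members named here were chosen after their values were seen. The members and the 52 lists, with 1290 of 1401 genes measured, were chosen with earlier results of these data known. Alternatives were other normalizations, centring, probe set rules, filters and folds. 1 item in the labels is left unreported.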

Additional observations from a re-analysis of the deposited data

Results flagged for a closer look

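Genes at least 2-fold apart in opposite directions at the 2 times were singled out by their signs, and the difference between the times was not tested. Knockdown minus control was -1.54 at 30 h and 1.19 at 0 h for Csk, a kinase that inhibits Src, and -1.37 and 1.21 for the helicase subunit Mcm6. It was -1.17 at 30 h and 1.37 at 0 h for the steroid dehydrogenase Hsd17b6, and -1.08 and 1.38 for the phospholipid transfer protein Pltp. Topbp1, a replication checkpoint protein, had -1.03 at 30 h and 1.00 at 0 h, and Ikbkg, the NEMO subunit of the IkB kinase, had -1.01 and 1.20. In the other direction Wdfy1 had 1.05 at 30 h and -1.07 at 0 h, and the kisspeptin receptor Kiss1r had 1.03 and -1.41.

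List medians of opposite sign and at least 0.2 in size at both times were -0.76 at 30 h and 0.26 at 0 h for origin licensing, -0.25 and 0.24 for the antioxidant response, and -0.25 and 0.24 for gluconeogenesis and glycogen. Sinusoidal endothelial markers had -0.48 at 30 h and 0.22 at 0 h, Kupffer cell and macrophage markers -0.27 and 0.41, and 5 erythroid markers 0.26 and -0.30. These differences between the times were not tested either.

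Probe sets without a gene symbol were outside the comparison. Of 1139 bright ones, 97 were higher and 14 lower by 2-fold or more in knockdown liver at 30 h, 9.75% together, with differences between -1.92 and 2.80. Of the 9759 bright genes with a symbol, 111 (1.14%) were higher and 211 (2.16%) lower, so the balance of directions was the other way. The share of 34.5% higher given above covers genes with a symbol only.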

How the results depend on the processing

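No paired analysis was possible because each group had 1 array, and for the same reason no array could be left out. Counts of bright genes at least 2-fold higher and lower, 111 and 211, were 403 and 363 with no filter on dim genes, 18 and 59 above percentile 75 of mean level, 616 and 1223 at 1.5-fold, 10 and 14 at 3-fold, and 206 and 119 after median centring, which moved the median of all genes to 0.13. They were 125 and 171 after quantile normalization, 131 and 186 after cyclic loess, 110 and 211 with the mean of probe sets, and 153 and 160 after subtraction of the decile median, an alternative chosen after seeing the data. The median of the cell cycle lists ran between -0.62 and -0.43, and that of the histones between -0.61 and -0.45. Of 378 list medians under alternatives, 123 moved by more than 0.1 and 1.5 times, and 23 of 54 lists changed sign under at least 1 alternative, all with a median of 0.18 or less in size. None of the 24 lists with a median of 0.2 or more in size did. The 89 named genes past 2-fold kept their direction under all 5 normalization, centring and probe set settings, and between 69 and 89 of them stayed past 2-fold. These genes and lists were picked by size on the same arrays, so a change of direction had little room. Their kept direction is no separate check. Without replicates, the size of a difference that arrays of the same group would show is unknown.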
